A study of Homo sapiens with 18 samples.

Results

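The AP-1 genes examined here are the 8 genes JUN, JUNB, JUND, FOS, FOSB, FOSL1, FOSL2 and BATF, out of 20020 protein-coding genes annotated. They were chosen by name, and each was represented in each histone modification by that one of the listed intervals reaching within 2 kb of a GENCODE transcription start site (TSS) whose mean count was highest, called its promoter interval. Listed intervals that lay further out but within 20 kb of a TSS were taken as distal intervals. The libraries came from MOLM-13, an established line of human acute myeloid leukemia (AML) that carries a rearranged KMT2A gene. They were made by Cut&Tag, in which an antibody tethers Tn5 transposase to chromatin so that DNA beside a modified histone is cut and tagged. Cells received 100 nM PR-957 (ONX-0914), an inhibitor of the immunoproteasome subunit PSMB8, or the solvent DMSO, for 72 h in the sample labels (the study's legend for these libraries gives a different time). H3K4me3, H3K27ac, H3K4me1 and H3K27me3 each had 2 DMSO and 2 PR-957 libraries, which makes 16, and 2 further samples made with IgG were not used here. The labels do not say whether replicates were separate cultures, so p-values measure only the spread between these libraries, which may be technical. All libraries are of 1 cell line.

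AP-1 is a dimer of basic leucine zipper proteins, usually a JUN protein with a FOS protein, that binds the DNA element known as the TRE. JUN proteins can pair with each other, FOS proteins need a partner, and BATF pairs with JUN proteins and lacks a transactivation domain. Several of these genes are immediate early genes, switched on by growth factor and stress signals through MAP kinases without new protein synthesis, and in myeloid cells JUN and FOS proteins take part in monocyte differentiation. H3K4me3 and H3K27ac mark active promoters, H3K4me1 is typical of enhancers and promoter flanks, and H3K27me3 is laid down by Polycomb repressive complex 2.

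Summed over its intervals, a library held 9885836 to 14165777 counts for H3K27ac, 10032503 to 12047958 for H3K27me3, 15204186 to 30584219 for H3K4me1 and 30070119 to 44591150 for H3K4me3. In H3K4me1 the DMSO libraries held 30584219 and 23874111 counts and the PR-957 libraries 15204186 and 22790073. In H3K4me3 the counts were 44591150 and 42037643 in DMSO and 30070119 and 30454212 in PR-957. Depth thus differed by treatment in these modifications, and its bearing on the estimates was not tested. As a check of the labelled cell type, 6 of 7 myeloid marker genes (SPI1, CD33, LYZ, CEBPA, FLT3 and ITGAM, not MPO) had an H3K4me3 promoter interval, all 7 had one for H3K27ac and 0 for H3K27me3. Of the T cell markers CD3E, CD3D and LCK, 0 of 3 had an H3K4me3 or H3K27ac promoter interval. The B cell marker PAX5 and APOA1 (liver) had both, and KLF1 (erythroid) and EPCAM (epithelial) had H3K4me3 without H3K27ac. H3K27me3 was listed at PAX5, KLF1, EPCAM and LCK.

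The promoters of 4 members are shown because they stand for the different chromatin patterns described below: JUN, the 1 member with H3K27me3, JUND, highest in H3K27ac per kb, FOS, the member with the smallest H3K27ac p-value, and BATF, lowest in H3K4me3 and H3K27ac per kb. Each sequence is the 250 bases before the RefSeq start (GRCh38.p14), read 5′ to 3′ on the gene's strand, with a TRE-like element, a CRE or a TATA box in capitals. They lie at chr1:58784048-58784297 (minus strand) for JUN, chr19:18281623-18281872 (minus strand) for JUND, chr14:75278578-75278827 (plus strand) for FOS and chr14:75522219-75522468 (plus strand) for BATF.
JUN: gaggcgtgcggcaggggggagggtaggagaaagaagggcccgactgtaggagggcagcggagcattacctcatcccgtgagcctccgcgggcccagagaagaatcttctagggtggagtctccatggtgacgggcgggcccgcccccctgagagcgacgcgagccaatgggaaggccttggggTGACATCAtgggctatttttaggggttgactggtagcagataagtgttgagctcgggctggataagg
JUND: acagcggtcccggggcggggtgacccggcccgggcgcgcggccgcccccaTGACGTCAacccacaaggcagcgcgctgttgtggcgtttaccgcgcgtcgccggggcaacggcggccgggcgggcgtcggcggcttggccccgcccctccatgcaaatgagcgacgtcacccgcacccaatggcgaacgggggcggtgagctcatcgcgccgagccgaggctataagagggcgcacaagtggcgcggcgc
FOS: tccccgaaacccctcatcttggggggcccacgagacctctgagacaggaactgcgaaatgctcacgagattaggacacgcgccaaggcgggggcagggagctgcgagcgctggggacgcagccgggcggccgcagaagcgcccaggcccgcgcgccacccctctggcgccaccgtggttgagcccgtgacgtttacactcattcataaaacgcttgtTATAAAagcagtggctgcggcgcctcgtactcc
BATF: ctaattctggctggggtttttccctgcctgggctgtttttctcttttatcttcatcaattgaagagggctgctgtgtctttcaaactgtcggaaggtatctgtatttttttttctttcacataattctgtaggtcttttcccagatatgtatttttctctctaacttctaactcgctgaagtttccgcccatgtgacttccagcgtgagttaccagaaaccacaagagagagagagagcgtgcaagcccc
In JUN the capitals mark TGACATCA, the element through which JUN dimers are known to act on JUN's own promoter, 67 to 60 bases before the start. In JUND they mark the CRE TGACGTCA, 200 to 193 bases before the start, and in FOS the TATA box TATAAA, 33 to 28 bases before it. BATF held none of these.

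Motifs were searched on both strands of these 250 bases, and 7 of the 8 members matched a RefSeq promoter (not FOSL1). TGACATCA was in 1 of the 7 and in 2.37% of 35116 promoters, and TGACGTCA in 1 of the 7 and 1.65% of promoters. The TRE TGACTCA was in 0 of the 7 and in 4.20% of promoters, and the serum response element in 0 of the 7 and in 1.16%. Sequence further upstream was not searched and only exact matches were counted, so these counts do not show that a gene lacks the element. The FOS window, for example, holds tgacgttt, which differs from TGACGTCA in its last bases and was not counted. TATAAA was found in JUNB, FOS and FOSB (10.7% of promoters), the GC box GGGCGG in 6 of the 7 (42.6%) and CCAAT in JUN, JUNB and JUND (32.0%). The NFE2L2 element TGACNNNGC was in JUND (10.9%). The GC content of the windows was 62% in JUN, 74.8% in JUND, 64.8% in FOS and 43.2% in BATF, against a median of 58% over all promoters, and they held 14, 40, 25 and 5 CpG dinucleotides. BATF thus had the most AT-rich of the 7 windows. A match is a run of letters, not a measured binding site.

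All 8 members had a promoter interval in H3K4me3, H3K27ac and H3K4me1, whereas 63.9%, 60.4% and 43.5% of protein-coding genes did. H3K27me3 was listed at 1 of the 8 (JUN) and at 19.9% of protein-coding genes. The H3K4me3 intervals (hg38, coordinates as the files list them) ran from 58781578 to 58786036 on chromosome 1 for JUN, 12781352 to 12797729 on chromosome 19 for JUNB, 18274179 to 18284406 on chromosome 19 for JUND and 75274702 to 75282368 on chromosome 14 for FOS. They ran from 45466613 to 45471824 on chromosome 19 for FOSB, 65897390 to 65903783 on chromosome 11 for FOSL1, 28389227 to 28396941 on chromosome 2 for FOSL2 and 75521811 to 75525180 on chromosome 14 for BATF. These stretches include the promoter and part of the gene, from 100% of the annotated length of JUNB, JUND and FOS to 11.1% of BATF. JUN, JUNB and JUND each have 1 exon and so no intron in the MANE Select transcript, while FOS, FOSB, FOSL1 and FOSL2 have 4 exons and BATF has 3. The JUNB interval was 16.4 kb wide, wider than 99.4% of genes with an H3K4me3 interval, and it also covered a TSS of HOOK2, as the JUND interval did for IQCN, so that their counts belong to more than 1 gene. The same holds for the H3K27ac intervals of JUNB and JUND, which covered a TSS of HOOK2 and of IQCN. The FOSL1 H3K4me1 interval was 35.0 kb wide and took in the starts of C11orf68, CCDC85B, DRAP1 and FIBP. The FOSL2 H3K4me1 interval lay 1427 bp from the nearest annotated FOSL2 TSS and not on it.

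Levels are given per kb as CPM (the count scaled to a common normalised library size) divided by the interval's width. In DMSO, H3K4me3 per kb was highest at FOSL2, 9.65 ± 0.46 (SD, n = 2), followed by JUN at 7.24 ± 0.24, FOSB at 6.96 ± 0.17 and JUNB at 6.69 ± 0.06. FOS (5.88 ± 0.27) and JUND (5.79 ± 0.07) came next, then FOSL1 at 4.00 ± 0.36 and BATF at 2.67 ± 0.22. JUN and FOSB, FOSB and JUNB, and FOS and JUND overlapped over their 4 libraries, and the other neighbours in this order did not. BATF stood at percentile 22.2 of all genes with an H3K4me3 interval and FOSL2 at percentile 96.4.

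H3K27ac ordered the same genes differently. Its level per kb in DMSO was 16.0 ± 0.60 at JUND, 13.3 ± 0.42 at FOSB, 8.79 ± 0.42 at FOS and 7.99 ± 0.46 at JUNB. It was 6.91 ± 0.03 at FOSL2, 6.10 ± 0.14 at FOSL1, 5.39 ± 0.03 at JUN and 2.06 ± 0.07 at BATF. Only FOSL2 and FOSL1 overlapped among neighbours. JUND was at percentile 98.1 and FOSB at 96.3 of genes with an H3K27ac interval, whereas BATF was at 19.3. FOSL2 ranked 1 in H3K4me3 and 5 in H3K27ac, and JUN ranked 2 in H3K4me3 and 7 in H3K27ac.

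H3K4me1 varied most between members. Per kb in DMSO it was 7.33 ± 0.29 at JUNB, percentile 99.8 of genes with an H3K4me1 interval, 2.95 ± 0.21 at JUND and 2.54 ± 0.07 at FOS. FOSL1 followed with 1.84 ± 0.09, then BATF with 1.04 ± 0.20, FOSB with 1.00 ± 0.08, JUN with 0.90 ± 0.20 and FOSL2 with 0.68 ± 0.07. JUND and FOS overlapped, and among BATF, FOSB, JUN and FOSL2 each overlapped with the next, so their order was not separable. The H3K4me1 values of FOS and FOSL2 come from intervals beginning 792 bp and 4080 bp downstream of the MANE Select TSS. Those of JUND (18281341 to 18294594 on chromosome 19) and JUNB (12781362 to 12792241 on chromosome 19) lay mostly upstream of it. They covered 14.6% of JUND and 41.3% of JUNB. The H3K4me1 values of the members thus do not all describe the same position.

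**Figure D1:**
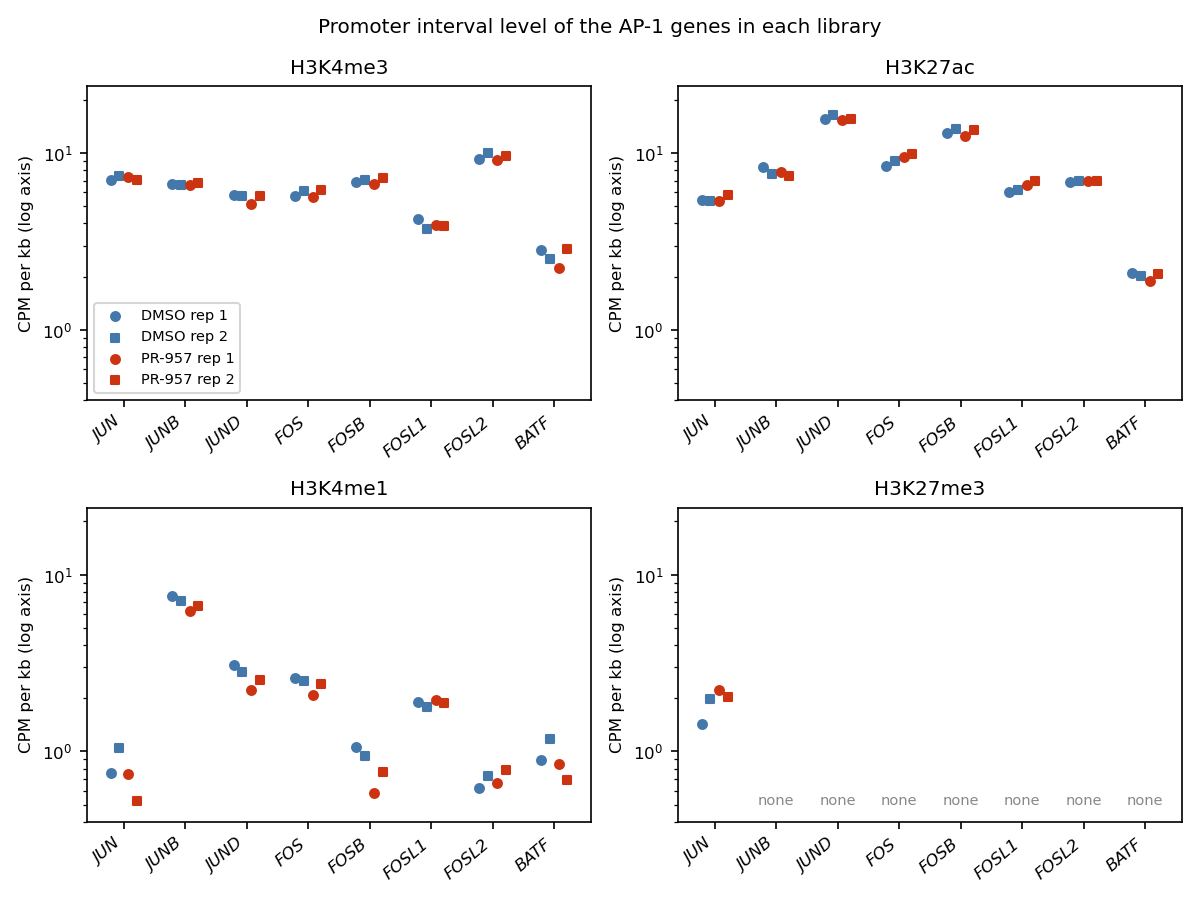
Level of the promoter interval of each AP-1 gene, in CPM per kb on a log axis, with 1 panel per modification and 1 point per library (blue for DMSO, red for PR-957, circles for replicate 1 and squares for replicate 2). JUND and FOSB lead in H3K27ac and FOSL2 in H3K4me3, JUNB leads in H3K4me1, and only JUN has H3K27me3 values ("none" marks genes without an interval).

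No difference in H3K4me3 between PR-957 and DMSO passed the test at the promoter intervals of the 8 members. In edgeR's quasi-likelihood test with Benjamini-Hochberg adjustment over all 59229 intervals, 0 of 8 members were called at an FDR of 0.05 (0 also at an unadjusted p below 0.05, and 0 in DESeq2), beside 0.226% of all intervals and 0.219% of the promoter intervals of protein-coding genes. An unadjusted p below 0.05 was seen in 8.04% of those genes. Log2 fold changes (PR-957 over DMSO) ran from −0.10 to 0.01 with SEs of 0.07 to 0.12, and the smallest adjusted p was 0.834. The median over the members was −0.02, beside −0.01 over all genes with an interval. The widest 95% confidence interval was that of BATF, −0.31 to 0.18, so a change within these limits cannot be told from none.

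JUN, the founding JUN protein, had H3K4me3 values of 31.5 and 33.1 CPM in DMSO and 32.8 and 31.4 CPM in PR-957. JUNB, which often restrains JUN, had 110 and 109 CPM in DMSO and 108 and 111 CPM in PR-957. In both genes the libraries of the treatments overlapped, with the PR-957 libraries of JUNB on either side of the DMSO libraries and 1 PR-957 library of JUN just below them. JUND, the JUN protein most steadily expressed in resting cells, had 59.7 and 58.7 CPM in DMSO and 52.5 and 58.2 CPM in PR-957. JUND was the 1 member whose PR-957 libraries were both below DMSO (log2 fold change −0.10 ± 0.07 SE, edgeR adjusted p = 0.834), a pattern that 21.0% of protein-coding genes showed.

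Among the FOS genes, FOS, the classic serum-induced member, had 43.6 and 46.6 CPM of H3K4me3 in DMSO and 43.1 and 47.5 CPM in PR-957, and FOSB had 35.6 and 36.9 CPM against 35.0 and 37.6 CPM. FOSL1 and FOSL2, the Fra proteins that lack the transactivation domain of FOS, had 27.2 and 23.9 CPM against 25.0 and 24.8 CPM and 72.0 and 77.0 CPM against 70.3 and 73.9 CPM. BATF had 9.53 and 8.48 CPM in DMSO and 7.58 and 9.64 CPM in PR-957. The groups overlapped at each of these 5 genes.

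In H3K27ac, FOS and FOSL1 had small positive estimates that did not pass, and the other 6 members lay closer to 0. Of the 8 members 0 were called by edgeR (0 in DESeq2), beside 0.238% of all intervals and 0.48% of protein-coding genes, and 1 member, FOS, had an unadjusted p below 0.05, beside 9.55% of genes. FOS had 88.7 and 94.9 CPM in DMSO and 99.0 and 103 CPM in PR-957 (log2 fold change 0.14 ± 0.06 SE) with an unadjusted p of 0.0244 and an edgeR adjusted p of 0.512. FOSL1 had 48.6 and 50.2 CPM in DMSO and 53.6 and 56.3 CPM in PR-957 (log2 fold change 0.16 ± 0.08 SE) with an edgeR adjusted p of 0.651. The PR-957 libraries lay above both DMSO libraries at FOS, FOSL1 and FOSL2, 3 of 8 members, as they did at 19.1% of protein-coding genes. At FOSL2 this separation was minute, with 51.5 and 51.8 CPM against 51.8 and 52.2 CPM.

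The other members' H3K27ac libraries overlapped between treatments. JUN had 19.8 and 19.7 CPM in DMSO and 19.5 and 21.1 CPM in PR-957, and JUNB had 141 and 130 CPM against 134 and 127 CPM. JUND, the member with the most H3K27ac, had 165 and 174 CPM in DMSO and 164 and 167 CPM in PR-957 (log2 fold change −0.04) with a 95% confidence interval of −0.13 to 0.06. FOSB had 66.2 and 69.3 CPM against 63.6 and 69.1 CPM. BATF had 4.01 and 3.83 CPM against 3.62 and 3.94 CPM, and its mean count of 45.8 left a 95% confidence interval of −0.67 to 0.57. The median log2 fold change of the members was −0.01, beside 0.00 over all genes.

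In H3K4me1, 6 of the 8 members had both PR-957 libraries below both DMSO libraries, as 32.5% of protein-coding genes did, and 0 were called by edgeR (0 in DESeq2), beside 1.94% of all intervals and 2.15% of genes. An unadjusted p below 0.05 was found for JUN, JUND and FOSB, 3 of 8, beside 16.9% of genes. The median log2 fold change was −0.25 over the members and −0.08 over all genes with an interval, and it stayed between −0.27 and −0.15 for the members over the other fits on the same windows. With 8 genes whose intervals were chosen by count, these shares are a description and no test of the family. The PR-957 libraries of this modification also held fewer counts in all than the DMSO libraries.

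FOSB had 6.23 and 5.60 CPM of H3K4me1 in DMSO and 3.47 and 4.52 CPM in PR-957, the lowest of the 8 log2 fold changes at −0.55 ± 0.20 (SE), with an unadjusted p of 0.0059 and an edgeR adjusted p of 0.117. JUND had 41.0 and 37.1 CPM against 29.4 and 33.4 CPM, −0.31 ± 0.12 on the log2 scale with an edgeR adjusted p of 0.125. This was the lowest of the 8 JUND intervals within 2 kb of a TSS, which ran up to −0.08. Of those 8, 4 had an unadjusted edgeR p below 0.05, beside 16.9% of the promoter intervals of all protein-coding genes. Listed intervals overlap each other, so the 8 are not independent regions. JUN had 3.05 and 4.22 CPM against 3.02 and 2.13 CPM, so that DMSO replicate 1 and PR-957 replicate 1 were nearly equal. Its 95% confidence interval reached from −1.03 to 0.00 on a mean count of 71.8.

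BATF had 3.66 and 4.85 CPM of H3K4me1 in DMSO and 3.47 and 2.83 CPM in PR-957 (log2 fold change −0.44 ± 0.23). FOS had 28.4 and 27.4 CPM against 22.9 and 26.3 CPM, and JUNB had 81.9 and 77.5 CPM against 68.0 and 72.7 CPM. The PR-957 libraries were lower at all 3 of these genes. FOSL1 (66.5 and 62.3 CPM against 68.0 and 66.1 CPM) and FOSL2 (2.61 and 3.05 CPM against 2.76 and 3.30 CPM) overlapped between treatments, and theirs are also the values that rest on a 35.0 kb interval over other genes' starts and on an interval away from the TSS. A shorter FOS interval, 75279574 to 75281944 on chromosome 14 within the gene, had a log2 fold change of −0.58 (edgeR adjusted p = 0.115), and −0.93 with an adjusted p of 0.0483 without PR-957 replicate 2.

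**Figure D2:**
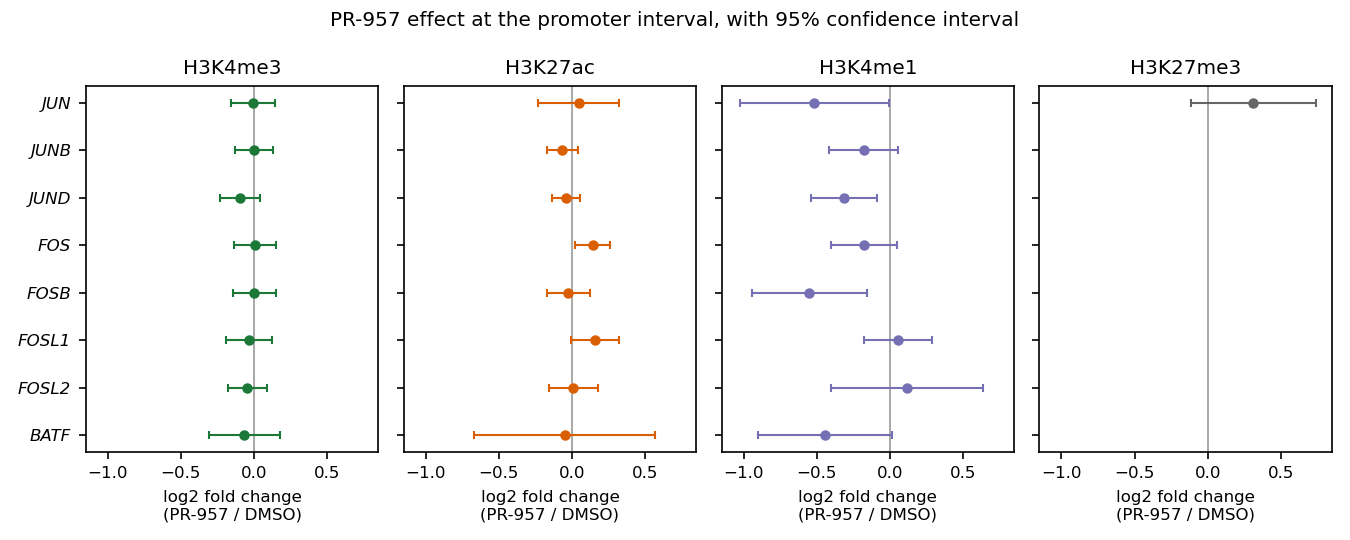
Log2 fold change of PR-957 over DMSO at the promoter interval of each AP-1 gene, with 1 panel per modification, points for the edgeR estimate and bars for its 95% confidence interval (2 libraries per treatment). The H3K4me3 estimates sit between −0.10 and 0.01, the H3K4me1 estimates between −0.55 and 0.12, and only JUN has an H3K27me3 estimate, 0.31.

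JUN was the 1 AP-1 gene with H3K27me3 on its promoter. The interval ran from 58783704 to 58787989 on chromosome 1, from 3942 bp upstream to 343 bp downstream of the MANE Select TSS, and overlapped JUN's H3K4me3 interval by 2332 bp, its H3K27ac interval by 1919 bp and its H3K4me1 interval by 2023 bp. Of 12790 genes with an H3K4me3 promoter interval, 2314 (18.1%) also had one for H3K27me3, and JUN's H3K27me3 level per kb was at percentile 35.9 of those. In a bulk population, marks on the same molecule and marks on different cells or alleles cannot be told apart. The interval also covered the start of the non-coding gene LINC01135. The nearest listed H3K27me3 interval was 26.9 kb from a TSS for FOSB, 33.3 kb for JUNB, 42.5 kb for JUND and 88.5 kb for FOSL1, and 588.9 kb or more for BATF, FOSL2 and FOS.

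H3K27me3 at JUN was 6.14 and 8.46 CPM in DMSO and 9.55 and 8.74 CPM in PR-957. The PR-957 libraries were above both DMSO libraries, as at 20.3% of protein-coding genes, and the DMSO libraries differed from each other by more than the means of the treatments did. The log2 fold change was 0.31 ± 0.22 (SE, edgeR unadjusted p = 0.150, adjusted p = 0.540). At an FDR of 0.05, 0 of 1 members was thus called (0 in DESeq2), beside 5.92% of all intervals and 11.8% of genes in edgeR. JUN's log2 fold change was 0.10 without DMSO replicate 1 and 0.56 without DMSO replicate 2, so that the DMSO libraries set its size. The median over genes carrying both H3K4me3 and H3K27me3 was −0.04.

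All other listed intervals near the members gave the same count of calls. Within 2 kb of a TSS, 0 of 33 intervals in H3K4me3, 0 of 33 in H3K27ac, 0 of 38 in H3K4me1 and 0 of 5 in H3K27me3 passed in edgeR. The shares over all intervals were 0.226%, 0.238%, 1.94% and 5.92%. Of distal intervals, 0 of 56, 0 of 65 and 0 of 57 passed in H3K4me3, H3K27ac and H3K4me1, with 8, 3 and 15 at an unadjusted p below 0.05. Over the distal intervals of all protein-coding genes, 0.147%, 0.309% and 1.76% passed. Unadjusted edgeR p-values below 0.05 were seen in 7.45%, 7.69% and 16.2% of those, beside 14.3%, 4.62% and 26.3% for the members. In H3K4me3 the 8 such intervals were 4 at JUND and 4 at FOS, and each set overlapped over the same stretch. The smallest adjusted p-values of the members' distal intervals were 0.321, 0.511 and 0.0816. The single distal H3K27me3 interval, at JUN, had too few counts to be tested. JUN had no distal interval in the other modifications, and FOSL2 had none in H3K4me3. Since the lists hold overlapping intervals and many are at a start of another gene, 23, 33 and 33 distal intervals lay at no other gene's TSS, and the counts are not of independent regions.

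The distal H3K4me1 intervals had lower estimates more often than the background did. Log2 fold changes were below 0 in 50 of 57 (87.7%), with a median of −0.18, beside 52.5% of 51969 such intervals of all protein-coding genes with a median of −0.02. In H3K4me3 the share was 46.4% (all genes 52.2%) and in H3K27ac 53.8% (all genes 50.4%). JUNB, FOSB and BATF had 0 higher and 8, 7 and 5 lower H3K4me1 estimates, and FOS had 2 higher and 13 lower. JUND had 1 higher and 8 lower, FOSL2 had 1 higher and 5 lower, and FOSL1 was near balance with 3 higher and 4 lower. The 57 intervals belong to 17 merged loci, and no test of the share was made.

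The distal H3K4me1 intervals with the smallest p at JUND, BATF and FOSL1 are given here, chosen after their values were seen. An interval 15.2 kb upstream of the JUND TSS (18296808 to 18306115 on chromosome 19) had 32.1 and 28.3 CPM in DMSO and 24.8 and 23.0 CPM in PR-957, −0.34 ± 0.12 on the log2 scale with an edgeR adjusted p of 0.0816. An interval 19.1 kb from a TSS of BATF (75541689 to 75543504 on chromosome 14, inside the annotated gene) had 4.54 and 3.85 CPM against 2.12 and 2.91 CPM, −0.71 ± 0.25 with an edgeR adjusted p of 0.094. In both, the PR-957 libraries were lower. Near FOSL1, an interval 13.4 kb from a TSS (65913997 to 65918860 on chromosome 11), at the starts of C11orf68 and DRAP1, had 14.8 and 13.5 CPM against 18.2 and 18.3 CPM, higher in PR-957, with a log2 fold change of 0.36 and an edgeR adjusted p of 0.0848. It passed under GC content offsets (adjusted p = 0.0167), cyclic loess offsets (0.0339) and library size scaling (0.0321).

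The genes whose levels were most like each member's were found by the Euclidean distance of log2 CPM per kb over the 12 libraries of H3K4me3, H3K27ac and H3K4me1, among 7190 genes with all 3 intervals. For JUN they were CCDC25 and ESCO2, which share an interval (0.43), and STIM2 (0.53), and for JUNB TRIM8 (0.68), ZBTB7A (0.78) and DUSP22 (0.83). For JUND they were IFNGR1 (0.48), FOXP1 (0.54) and SFT2D1 (0.58), and for FOS KDM3B (0.30), ENSG00000290318 (0.35) and JMJD6 (0.37). For FOSB they were ENSG00000268173 (0.49), GFI1 (0.56) and SCAMP1 (0.61), and for FOSL1 NSD2 (0.43), SDE2 (0.52) and EIF3M (0.52). For FOSL2 they were TMEM250 (0.43), NOP14 (0.56) and KLHL8 (0.56), and for BATF GAMT (0.52), PLXNB1 (0.67) and LCN12 (0.72). No member was among the nearest genes of another. The closest pairs of members were JUN and FOSL2 (1.35) and JUND and FOS (1.61), and the farthest was JUNB and BATF (7.62).

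Genes around AP-1 were followed in 4 lists written from general knowledge. Among the 12 partners of AP-1 dimers (among them ATF proteins, JDP2 and small MAF proteins), 0 of 11 with an interval were called in H3K4me3, 0 of 10 in H3K27ac and 1 of 11 in H3K4me1, with median log2 fold changes of 0.04, 0.05 and −0.23. Among the 13 upstream kinases and ternary complex factors 0 of 13, 0 of 12, 0 of 9 and, in H3K27me3, 0 of 1 were called (medians 0.02, 0.02, −0.01 and 0.30). Among the 19 immediate early genes 0 of 18, 2 of 18, 2 of 15 and 1 of 3 were called (medians −0.03, 0.08, −0.26 and −0.44). Among the 13 genes known to be driven by AP-1 0 of 8, 0 of 5, 0 of 10 and 0 of 1 were called (medians −0.01, −0.01, −0.06 and −0.18). Of the promoter intervals of all protein-coding genes, 0.219%, 0.48%, 2.15% and 11.8% were called in the same order of modifications. The medians over all genes were −0.01, 0.00, −0.08 and −0.02. No test of the lists was made.

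The calls among immediate early genes went both ways. NR4A3, an orphan nuclear receptor whose loss together with NR4A1 is known to cause myeloid leukemia in mice, rose in H3K27ac from 45.0 and 43.6 CPM to 57.5 and 56.8 CPM (log2 fold change 0.37 ± 0.09 SE, edgeR adjusted p = 0.0135). It fell in H3K27me3 from 33.4 and 34.5 CPM to 25.6 and 24.7 CPM (−0.44 ± 0.12, edgeR adjusted p = 0.00582), so it was called in opposite directions in an active and a repressive mark. Its H3K27ac adjusted p was 0.106, 0.198, 0.163 and 0.388 without DMSO replicates 1 and 2 and PR-957 replicates 1 and 2, and its H3K27me3 adjusted p was 0.107 when DMSO replicate 2 was left out and 0.0810 when PR-957 replicate 2 was. With library size only the H3K27me3 log2 fold change was −0.28 with an edgeR adjusted p of 0.159, so the call in H3K27me3 also rests on the scaling. IER2 fell in H3K27ac from 163 and 159 CPM to 129 and 142 CPM (−0.25 ± 0.05, edgeR adjusted p = 0.00198), with an adjusted p of 0.345 once PR-957 replicate 1 was left out, 0.0690 once DMSO replicate 1 was and 0.0580 once PR-957 replicate 2 was.

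EGR3, a zinc finger factor induced by the same signals, fell in H3K4me1 from 10.9 and 11.2 CPM to 6.67 and 7.70 CPM (−0.61 ± 0.15 SE, edgeR adjusted p = 0.0106). DUSP6, an ERK phosphatase, fell from 7.72 and 8.82 CPM to 4.88 and 5.65 CPM (−0.64 ± 0.17, edgeR adjusted p = 0.0242). Neither passed in DESeq2 (adjusted p = 0.410 for EGR3 and 0.506 for DUSP6), under GC content offsets in edgeR (0.0656 and 0.0794), or when either DMSO library or PR-957 replicate 1 was left out, where the edgeR adjusted p reached 0.157 for EGR3 and 0.226 for DUSP6. Among the partners, MAFG, a small MAF protein, fell in H3K4me1 from 46.0 and 46.2 CPM to 28.0 and 34.4 CPM (−0.55 ± 0.12, edgeR adjusted p = 0.00134), with an adjusted p of 0.295 without PR-957 replicate 1 and of 0.0550 in DESeq2.

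In the lists without a call, the gene with the smallest p in H3K27ac was SRF, the serum response factor (log2 fold change 0.35, edgeR adjusted p = 0.219), among upstream factors, and PLAUR, the urokinase receptor (−0.09, adjusted p = 0.933), among AP-1 driven genes. In H3K4me1 it was SRF again (−0.24, adjusted p = 0.436) and HMOX1, heme oxygenase (0.37, adjusted p = 0.112). In H3K4me3 it was MAF (0.56, adjusted p = 0.285), MAPK3 (−0.26, adjusted p = 0.747), DUSP6 (−0.14, adjusted p = 0.663) and PLAUR (−0.16, adjusted p = 0.616) in the 4 lists. In H3K27ac MAFG led the partners (0.19, edgeR adjusted p = 0.436), and in H3K27me3 the values were MAPK10 (0.30, edgeR adjusted p = 0.754) and CCND1 (−0.18, edgeR adjusted p = 0.349). SRF thus had estimates of opposite sign in H3K27ac and H3K4me1, and the difference was not tested.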

How the data were processed

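Cut&Tag reads had been aligned to hg38 with Bowtie2 (2.2.5 in the submitters' processing notes, which also list Trimmomatic 0.39, Picard 2.27.1, SAMtools 1.7, SEACR 1.3 and deepTools 3.5.1). The counter and the way duplicates were handled are not stated. The authors deposited raw counts per interval, on 1 interval list per modification, without normalization.

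Intervals were assigned to protein-coding genes with GENCODE release 44. Counts were filtered by filterByExpr (minimum count 10), scaled by TMM and tested with edgeR 4.0.16 (quasi-likelihood, R 4.3.3) within each modification, with Benjamini-Hochberg adjustment at 0.05 over all intervals tested. The script was tested on simulated data. CPM used TMM library sizes. An exact permutation of 2 against 2 libraries could reach no p below 0.333.

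Genes named were all 8 members, called companion genes or otherwise the smallest p per list, and the 3 genes nearest in level. Members and lists were chosen with earlier results of these data known. A marker gene and a companion gene with its list's H3K27me3 count are not reported here. Alternatives were DESeq2 1.42.0, scaling by library size only or by median-of-ratios factors, offsets from cyclic loess (limma 3.58.1) or GC content (loess span 0.3), no filter or a mean count of 50 and above, the replicate block, windows of 1 and 5 kb and leaving out each library.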

Additional observations from a re-analysis of the deposited data

How the results depend on the processing

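Over 349 gene and setting combinations, 0 members were called and 21 estimates changed sign, 16 of them in H3K4me3, where estimates were near 0. The lowest adjusted p was 0.0900. In H3K4me3, JUNB and FOSB turned to −0.0175 and −0.0126 under GC content offsets, and JUN to 0.00918 under cyclic loess offsets and 0.0028 under library size only. Leaving out each library gave H3K4me3 ranges of −0.0425 to 0.0260 for JUN, −0.0185 to 0.0191 for JUNB, −0.0660 to 0.0750 for FOS, −0.0523 to 0.0518 for FOSB, −0.13 to 0.0587 for FOSL1, −0.0939 to 0.0030 for FOSL2 and −0.25 to 0.10 for BATF. It gave H3K27ac ranges of −0.0166 to 0.10 for JUN, −0.0892 to 0.0313 for FOSB and −0.12 to 0.0059 for BATF, and −0.0295 to 0.23 for FOSL2 in H3K4me1. A lone library was assumed to vary like the other treatment's pair.

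Distal H3K4me1 calls were 3 under GC content offsets and 2 under each of cyclic loess offsets and library size only, all near FOSL1. H3K4me1 intervals within 2 kb of a TSS had 0 to 1 calls on leaving out each library, the 1 without PR-957 replicate 2. Companion genes, whose alternatives were added after seeing the data, had 0 to 1 calls in H3K27ac (2 with all libraries), 0 to 5 in H3K4me1 (3 with all) and 0 to 3 in H3K27me3 (2 with all) on leaving out each library. They had 0 H3K4me1 calls in DESeq2, 1 under GC content offsets and 0 H3K27me3 calls under library size only. Library size only moved the H3K27me3 median of all intervals from 0.02 to 0.18, and JUN then stood at 0.47. BATF had no H3K27ac value at a mean count of at least 50. The causes were not tested.

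As a replicate block, the shared replicate number left 0 calls among the members' intervals in every modification, and 2, 3 and 2 companion genes in H3K27ac, H3K4me1 and H3K27me3. Deviations of same-numbered libraries correlated at 0.17 in H3K4me3 and between −0.01 and 0.01 in the other modifications, with 2 pairs each, so the numbers were not taken to pair the libraries.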
